A study of Mus musculus with 6 samples.

Results

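Translation initiation factors (eIFs) and elongation factors (eEFs) are the proteins that load a ribosome onto an mRNA, find the start codon and move the ribosome along the coding sequence. Their transcripts were taken here as the autosomal protein-coding genes whose symbols begin with Eif or Eef, leaving out the Eif2ak kinases. Of the 16381 genes listed with a value, 60 met this rule, and 59 of them reached 10 normalized counts in some sample and were tested among 14419 genes. The untested member, the eIF1A domain gene Eif1ad15, held between 0.0 and 4.0 normalized counts per sample. A further 21 annotated members, among them Eef1a2, Eif4ebp3 and Eif4e1b, are not in the list and were not analysed here. The rule uses the symbol, biotype and chromosome of a gene and no measured value, though it was set with earlier results of these data known.

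The samples were activated group 2 innate lymphoid cells (aILC2s), sorted by flow cytometry as CD45+, lineage-negative, ST2+ and CD127+ cells from the lungs of wild-type BALB/c mice. All mice, those of both groups, had received IL-33 into the nose at 0.5 µg per day for 3 days, and the study's methods describe female mice of 6 to 8 weeks. The cells were kept in culture for 24 h, exposed to 250 µM melatonin or to DMSO alone (vehicle), and RNA was sequenced from 3 samples per group. Neither the labels nor the methods say whether the 3 samples of a group came from separate mice or cultures, so the p-values measure only the spread between these samples, which may be technical. The deposited values are normalized counts, that is estimated read counts per gene divided by a size factor for each sample.

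In the cell, eIF2 carries the initiator tRNA to the small ribosomal subunit, and eIF2B recharges eIF2 with GTP after each round. The multisubunit eIF3 holds the small subunit and its partners together, while eIF4F, made of the cap-binding eIF4E, the scaffold eIF4G and the helicase eIF4A, brings in the mRNA. eIF1, eIF1A and eIF5 control the choice of the start codon, and eIF5B joins the large subunit. In elongation, eEF1A delivers aminoacyl-tRNAs, the eEF1B complex recharges eEF1A, eIF5A relieves stalled ribosomes and eEF2 moves the ribosome forward by a codon. ILC2s are lymphocytes that, once activated by IL-33, secrete large amounts of IL-5 and IL-13.

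The 6 libraries held between 17056267 and 20511700 estimated counts. ILC2 markers were present throughout, with 13 of 13 listed and a summed level of 151901 to 169797 normalized counts in melatonin and 218888 to 232893 in vehicle. Within that sum Il5, Il2ra, Klrg1 and 5 others fell, Gata3, Icos and Ptprc did not pass the test, and Il1rl1 (log2 fold change 0.63, or 0.42 without melatonin replicate 1) and Rora (0.64) rose. Of those that fell, Il7r lost its call without melatonin replicate 2 (adjusted p = 0.0532). Most listed markers of other cells were lower in melatonin, and some were not scarce in vehicle, such as Gzma at 6499 ± 720.1 (SD, n = 3) and Trbc2 at 3558. The 6 listed markers for natural killer cells and ILC1s, led by Gzma, summed to 85.0 to 214 in melatonin and 6020 to 7285 in vehicle, and Ncr1, a defining receptor of those cells, was at 0.0 to 1.0 in melatonin and 101 to 114 in vehicle. T cell markers summed to 2127 to 3175 and 6049 to 6577, with 6 of 10 listed. Of the genes that define T cells, Cd3g (1062 in vehicle and 536 in melatonin), Cd3e (209.9 and 65.5), Cd3d (11.8 and 2.32) and Trac (8.34 and 0.958) were listed and fell, the last pair losing their calls without some single samples (adjusted p up to 0.0965 for Cd3d and 0.0884 for Trac), and Cd4, Cd8a, Cd8b1 and Cd5 are not in the list. B cell markers summed to 145 to 241 and 392 to 566 (3 of 6 listed), myeloid markers to 364 to 847 and 1468 to 1720 (9 of 10), and epithelial and stromal markers to 1417 to 1570 and 1971 to 3156 (5 of 8). In the last list Epcam rose (log2 fold change 0.72, adjusted p = 0.00107) while the other 4 fell, Krt18 with a call that leaving out single samples ended (adjusted p up to 0.134). Against these sums the members held 277287 ± 23023 (SD, n = 3) normalized counts in melatonin and 356424 ± 5442 in vehicle. The sort left out cells stained for CD3ε, CD4, CD5, T cell receptors, B220, CD335 (the Ncr1 product), CD11b, CD11c, Gr-1, FcεRIα or Ter119. The part of other cells in the results was not tested, and in bulk samples fewer cells of a type and less RNA per cell cannot be told apart. The Y-linked Eif2s3y, which the rule leaves out, held 946 normalized counts in melatonin replicate 1, 0 in melatonin replicates 2 and 3, and 1230 to 1363 in the vehicle samples, so the libraries differ in sex and 4 of them go against the stated sex. Sex thus partly followed treatment, and it was not a term of the fit. The melatonin and vehicle libraries carry separate runs of library numbers in the labels. A batch that followed those numbers and the treatment therefore cannot be told apart.

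Most translation factor transcripts were lower after melatonin. With limma and an adjusted p under 0.05, 39 of the 59 tested members (66.1%) fell, where 24.7% of all genes tested did. Only 4 (6.78%) rose, where 24.5% of all genes did, and 16 did not pass the test. The 4 rises were Eif5, Eif4g2, Eif1 and Eefsec. The 3 melatonin values lay below all 3 vehicle values for 42 members, where this held for 30.3% of all genes, and above them for 4, where it held for 30.0% of all genes. The median log2 fold change (melatonin against vehicle, computed after adding 1 to each normalized count) was −0.47 over the members and −0.00 over all genes tested. Among the 48 members whose mean reached 1000 normalized counts 31 fell (64.6%), and of the 4464 genes that abundant 30.6% fell. The sample-by-sample plot showed the 3 vehicle samples close to each other, with a median coefficient of variation of 4.27% over the members, and the melatonin samples more spread, at 10.6%. Over the 9990 genes with a mean of 100 or more these medians were 5.96% and 10.6%. Melatonin replicate 1 was the lowest melatonin sample for 29 of the 39 members that fell (74.4%), while over all genes called lower it was so for 56.9%. Without melatonin replicate 1 the median over the members was −0.39, and 38 members fell. That refit sets melatonin libraries without Eif2s3y counts against vehicle libraries that all hold them. In it, sex and treatment cannot be told apart.

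**Figure D1:**
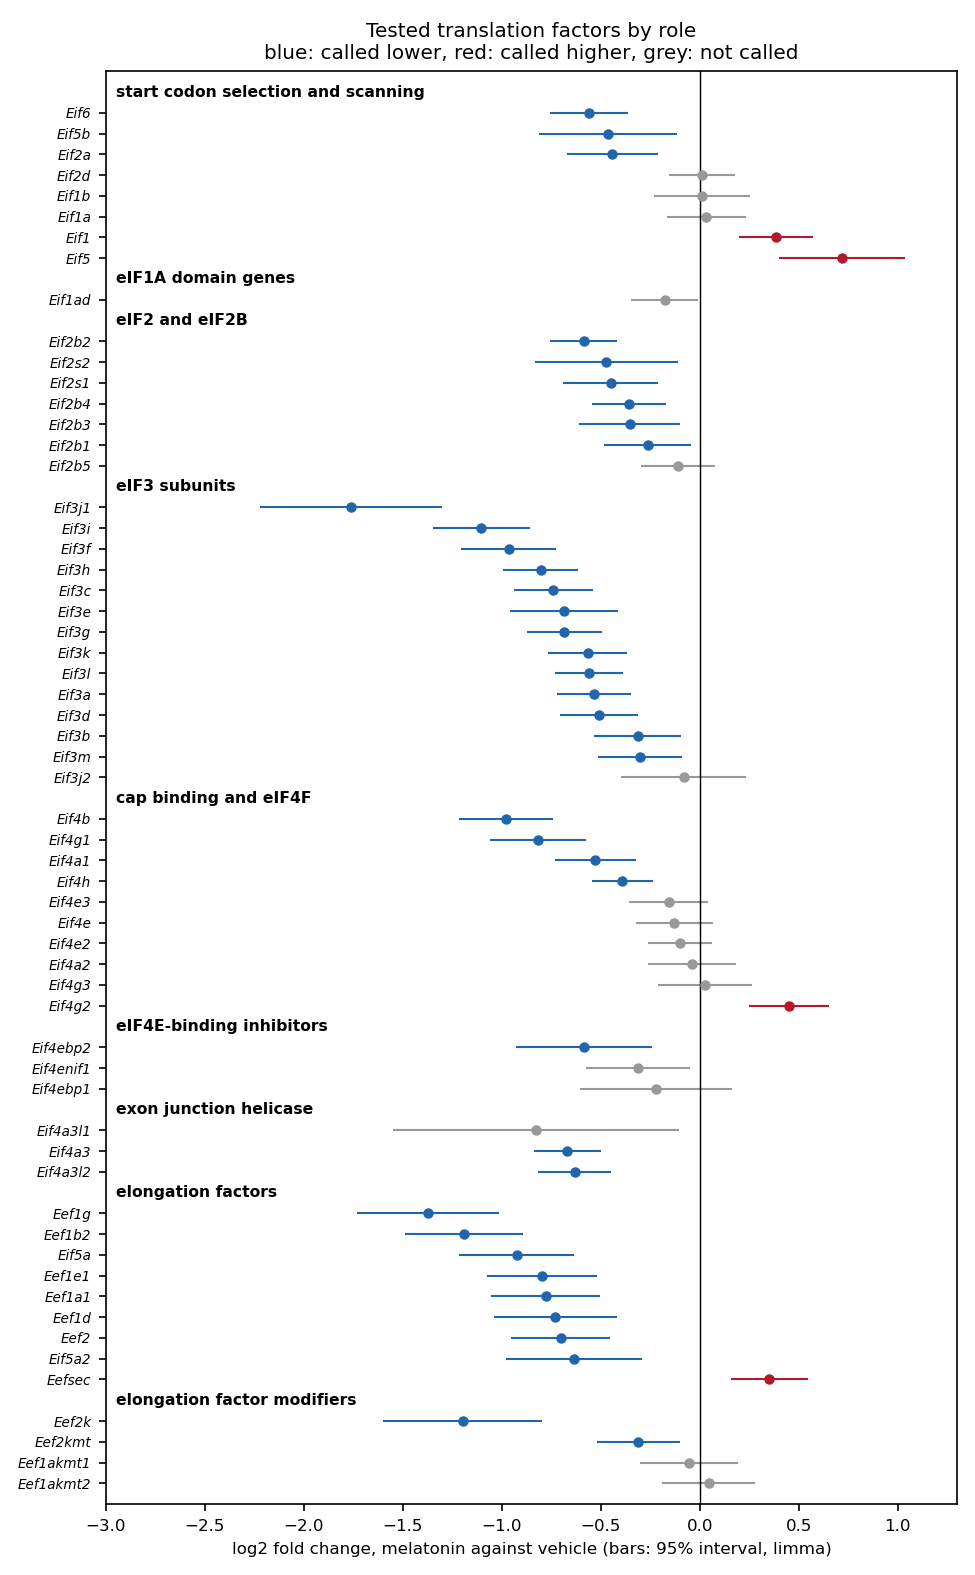
Log2 fold change (melatonin against vehicle) of the 59 tested members, grouped by role, with points for limma's estimate and bars for its 95% interval. Nearly all eIF3 and elongation factor genes lie left of 0, and the 4 members called higher, Eif5, Eif4g2, Eif1 and Eefsec, are the red points.

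**Figure D2:**
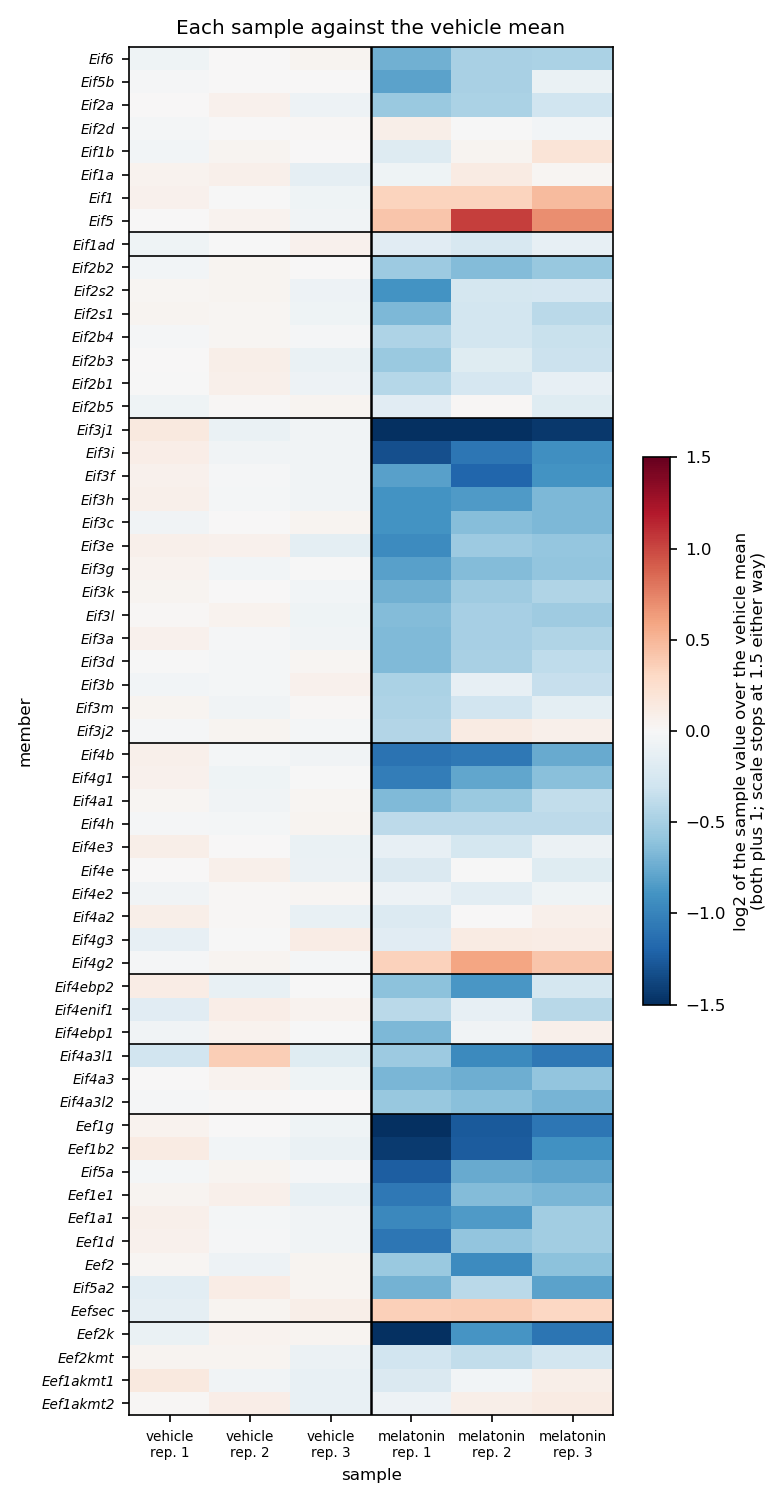
Each tested member (rows, in the same order by role) in each sample (columns), coloured by the log2 of its normalized count over the vehicle mean, both plus 1. The vehicle columns are pale, and the melatonin columns are blue for the 39 members that fell and red for the 4 that rose.

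The stretches of promoter below show 4 genes that fell and hold the E-box CACGTG, a motif bound by MYC and related factors, then Eef1a1, which fell and holds none, and the 3 most abundant members that rose, which hold none either. They were picked to show the motif and its absence, not as a sample of the members. Each runs 5′ to 3′ on the gene's own strand from 100 bases before to the 20th base of the annotated canonical transcript in GRCm39, with the E-box in capitals.
Eef2 (chr10:81012365-81012484, plus strand): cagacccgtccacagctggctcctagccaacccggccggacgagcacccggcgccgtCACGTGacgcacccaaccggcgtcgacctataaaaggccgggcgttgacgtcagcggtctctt
Eif5a (chr11:69812218-69812337, minus strand): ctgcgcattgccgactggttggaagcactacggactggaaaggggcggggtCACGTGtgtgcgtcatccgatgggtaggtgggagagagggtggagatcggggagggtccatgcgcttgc
Eif4g1 (chr16:20491401-20491520, plus strand): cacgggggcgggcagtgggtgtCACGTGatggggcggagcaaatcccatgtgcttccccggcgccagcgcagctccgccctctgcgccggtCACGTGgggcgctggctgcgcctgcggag
Eif3f (chr7:108533521-108533640, plus strand): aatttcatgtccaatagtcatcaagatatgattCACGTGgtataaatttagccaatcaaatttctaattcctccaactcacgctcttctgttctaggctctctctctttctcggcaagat
Eef1a1 (chr9:78388987-78389106, minus strand): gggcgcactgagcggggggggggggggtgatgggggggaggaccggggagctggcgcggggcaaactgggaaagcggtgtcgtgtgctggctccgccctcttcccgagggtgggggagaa
Eif5 (chr12:111504339-111504458, plus strand): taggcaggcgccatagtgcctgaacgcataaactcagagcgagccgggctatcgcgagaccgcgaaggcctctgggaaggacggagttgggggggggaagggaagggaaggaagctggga
Eif1 (chr11:100210570-100210689, plus strand): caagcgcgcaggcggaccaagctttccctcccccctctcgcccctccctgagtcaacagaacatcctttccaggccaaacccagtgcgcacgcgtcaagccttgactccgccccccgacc
Eif4g2 (chr7:110682225-110682344, minus strand): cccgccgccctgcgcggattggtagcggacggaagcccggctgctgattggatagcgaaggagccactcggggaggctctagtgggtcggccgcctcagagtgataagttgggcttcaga
In the window from 250 bases before to 50 after the start, the letters CACGTG (the same on both strands) were found in 10 of 59 members (16.9%) and in 10.1% of the 11650 promoters of all genes searched. The members were Eef2, Eef2k, Eif1ad, Eif3a, Eif3f, Eif3k, Eif4g1, Eif4h, Eif5a and Eif5a2, so 9 of the 39 members that fell and 0 of the 4 that rose held it. With 10.1% of all promoters holding the motif, 4 genes are too few to tell a lack of it from the usual share. In the printed stretches the E-box begins 43 bases before the start in Eef2, 49 in Eif5a and 67 in Eif3f, and Eif4g1 holds it at 78 and again at 9 bases before the start. The core of the antioxidant response element, TGACNNNGC on either strand, was found in 11 members (18.6%) and in 13.7% of all promoters, TATAAA in 4 (6.78%) and 8.15%, and TGATGNAA, part of an element for ATF4, in 1 (Eefsec, 1.69%) and 2.33%. The longest unbroken run of C and T within 50 bases of the start had a median of 6 bases in the members, 7 in the 39 that fell, 5 in the 4 that rose and 6 in all genes. Such matches describe letters only.

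One group took in 8 factors of start codon selection, scanning and subunit joining, of which 2 rose and 3 fell (24.5% and 24.7% of all genes), with a median log2 fold change of 0.01. Of those that control the choice of the start codon, Eif5 and Eif1 rose and Eif1a and Eif1b did not pass the test, and the 3 that fell, Eif2a, Eif5b and Eif6, have other tasks. The X-linked eIF1A gene Eif1ax, which the rule leaves out, was at −0.33 (adjusted p = 0.0487), or −0.19 without melatonin replicate 1. Its fall did not pass the test without melatonin replicate 1 or 3 or any one vehicle replicate (adjusted p = 0.0531 to 0.135). Eif5 (ENSMUSG00000021282, chr12:111502067-111514340, plus strand), whose product makes eIF2 hydrolyse its GTP when the start codon is found, held 12053, 18645 and 14665 normalized counts in melatonin replicates 1, 2 and 3 and 9077, 9376 and 8698 in the vehicle samples. Every melatonin sample was above every vehicle sample, and melatonin replicate 2 was the highest. The means were 15121 ± 3319.7 and 9050.4 ± 339.9 (SD, n = 3), a log2 fold change of 0.72 (SE 0.14, adjusted p = 0.00328). Eif1 (ENSMUSG00000035530, chr11:100210670-100212922, plus strand), which keeps the scanning ribosome open until it meets a proper start codon, held 27281, 27391 and 30164 in melatonin and 22704, 21620.0 and 20627 in vehicle. The groups did not overlap, and the log2 fold change was 0.38 (SE 0.08, adjusted p = 0.00511). Its near relative Eif1b held 998, 1173 and 1308 in melatonin and 1109, 1172 and 1147 in vehicle, with overlapping groups and a log2 fold change of 0.01 (95% interval −0.23 to 0.26). Eif1a, whose product works beside eIF1, was at 0.03 (95% interval −0.17 to 0.23), and Eif2d, a tRNA-delivering factor, at 0.01 (95% interval −0.16 to 0.18). Eif6, which keeps the large subunit from joining too early, fell by 0.56 on the log2 scale (adjusted p = 0.00106). Eif2a, an alternative initiator tRNA carrier, fell by 0.44 (adjusted p = 0.00707), and Eif5b fell by 0.46 (adjusted p = 0.0336), or by 0.30 without melatonin replicate 1. The fall of Eif5b did not pass the test without any one of 5 samples, with an adjusted p of 0.0559 to 0.0917 without melatonin replicate 1 or 2 or any vehicle replicate. The domain gene Eif1ad had a log2 fold change of −0.18 (adjusted p = 0.0789).

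**Figure D3:**
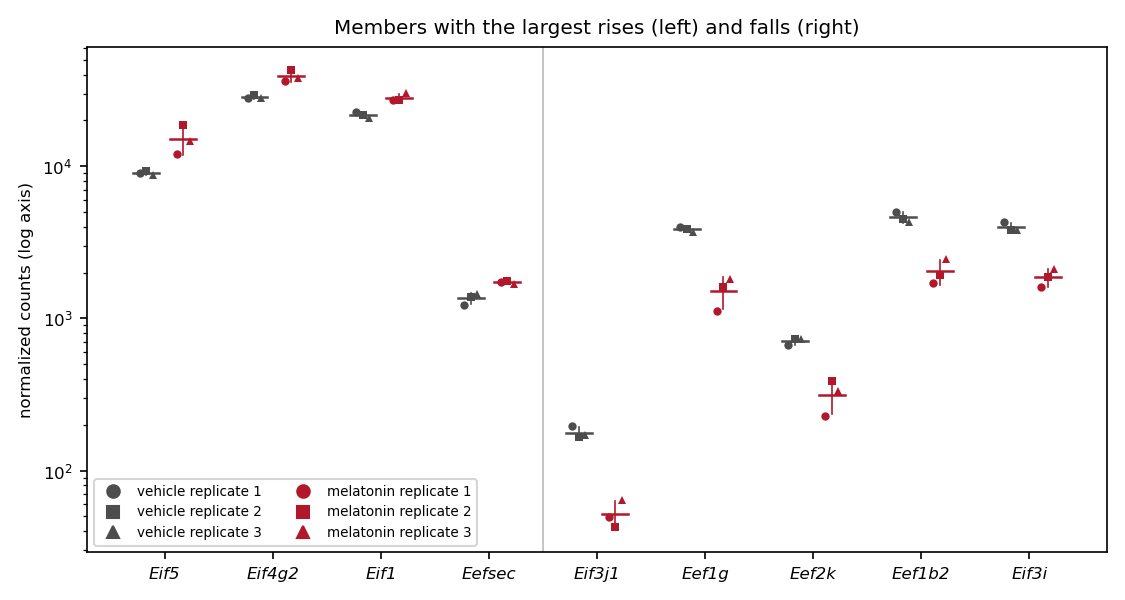
Normalized counts (log axis) of the 4 members with the largest rises and the 5 with the largest falls, with 1 marker per sample, a horizontal bar for the mean and a vertical bar for the SD. No melatonin sample overlaps the vehicle samples in any of the 9 genes, and Eif3j1 is far below the other 8 in level.

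Of the 7 eIF2 and eIF2B genes 6 fell and none rose, where 24.7% and 24.5% of all genes did, with a median of −0.36. The α subunit of eIF2, the site of the stress kinases' phosphorylation, is encoded by Eif2s1, which held 3937, 5216 and 4765 in melatonin and 6471, 6431 and 6002 in vehicle, a log2 fold change of −0.45 (SE 0.11, adjusted p = 0.00778). The β subunit gene Eif2s2 held 1685, 2604 and 2641 and 3192, 3239 and 2987, and melatonin replicate 1 was the lowest by a wide margin. Its log2 fold change was −0.47 (SE 0.16, adjusted p = 0.036), and −0.26 without melatonin replicate 1. Of the eIF2B subunits, Eif2b2 changed most and was even among replicates, at 1630.4, 1522 and 1613 in melatonin and 2316, 2445 and 2396 in vehicle (log2 fold change −0.59, SE 0.07, adjusted p = 0.000387). Eif2b4 held 1172, 1339.8 and 1287 and 1604, 1654 and 1597 (log2 fold change −0.36, adjusted p = 0.00713). Eif2b3 held 724, 941 and 852 and 1068, 1137 and 998 (log2 fold change −0.35, adjusted p = 0.0289). Neither gene's groups overlapped. Eif2b1 held 1545, 1740.4 and 1911 and 2073, 2186 and 1961, close to the threshold at −0.26 (adjusted p = 0.0477). Eif2b5, which encodes the catalytic subunit, held 2155, 2448 and 2146 and 2320.4, 2455 and 2502 and did not pass the test, at −0.11 (95% interval −0.30 to 0.08, adjusted p = 0.291). Some calls in this group depended on which samples were kept: the adjusted p was 0.0752 to 0.106 for Eif2s2 without any one vehicle replicate, 0.0757 to 0.11 for Eif2b3 without vehicle replicate 1 or 2, and 0.0692 to 0.162 for Eif2b1 without melatonin replicate 1 or 2 or any vehicle replicate.

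Of the 14 genes of eIF3 subunits 13 fell and none rose, beside 24.7% and 24.5% of all genes, with a median of −0.62. Eif3i (ENSMUSG00000028798, chr4:129485753-129494849, minus strand) fell most among the abundant subunits, holding 1601, 1884 and 2101 in melatonin and 4278, 3829 and 3835 in vehicle. The highest melatonin sample was well under the lowest vehicle sample, and the log2 fold change was −1.10 (SE 0.11, adjusted p = 0.000129). Eif3f, an MPN-domain subunit, held 1305, 1011 and 1243 and 2416, 2276 and 2222 (log2 fold change −0.97, adjusted p = 0.000224), and its partner with the same domain, Eif3h, fell by 0.80 (adjusted p = 0.000174). The scaffold Eif3a fell by 0.53 and Eif3c by 0.74, from 11425 ± 375 to 6866 ± 656 (SD, n = 3). Eif3e, Eif3g, Eif3k, Eif3l and Eif3d were at −0.69 to −0.51. Eif3b and Eif3m fell least, by 0.31 and 0.30 (adjusted p = 0.0259 and 0.0254). With a correction for transcript length Eif3k was at −0.26 and Eif3m at −0.14, and under quantile normalization Eif3b was at −0.17. Without melatonin replicate 3 or any one vehicle replicate the adjusted p of Eif3b was 0.0598 to 0.0981, and without melatonin replicate 2 or any one vehicle replicate that of Eif3m was 0.0554 to 0.0854. The genes of the loosely bound j subunit stood apart. Eif3j1 (ENSMUSG00000027236, chr2:121858606-121906334, plus strand) held 49.4, 42.7 and 64.4 in melatonin and 196, 165 and 170.0 in vehicle (log2 fold change −1.76, SE 0.20, adjusted p = 0.000269). Eif3j2, a near-identical copy with most of the counts, held 1733, 2562 and 2469 and 2329, 2428 and 2294, with overlapping groups and a log2 fold change of −0.08 (adjusted p = 0.654). The sum of both j genes was 2307 ± 455 (SD, n = 3) in melatonin and 2527 ± 64.5 in vehicle, a difference of −0.15 on the log2 scale (exact two-sided permutation p = 0.9), so the fall of Eif3j1 concerns 7.01% of the sum in vehicle and 2.32% in melatonin. Because the authors' algorithm can divide reads among copies, the split between these genes is uncertain.

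In the cap-binding group 4 of 10 genes fell (24.7% of all genes), 1 rose (24.5% of all genes) and 5 did not pass the test, with a median of −0.14. Over the 17 alternatives described below, which include leaving out each sample, this median ranged from −0.241 to −0.105. The scaffold Eif4g1 (ENSMUSG00000045983, chr16:20487063-20511654, plus strand) held 3061, 3676 and 4071 in melatonin and 6610.3, 6023 and 6286 in vehicle, a log2 fold change of −0.82 (SE 0.11, adjusted p = 0.000469). Eif4g2 (ENSMUSG00000005610, chr7:110666957-110682244, minus strand), a relative of eIF4G that lacks the site for eIF4E, went the other way, with 36264, 42931 and 38102 in melatonin and 28225, 29453 and 27975 in vehicle. The groups did not overlap, with means of 39099 ± 3443 and 28551 ± 791 (SD, n = 3) and a log2 fold change of 0.45 (SE 0.09, adjusted p = 0.00355). The third relative, Eif4g3, held 1320.4, 1621 and 1601 and 1366, 1482 and 1601 and was at 0.03 (95% interval −0.21 to 0.27). The helicase gene Eif4a1 held 4420.5, 4760.1 and 5432 in melatonin and 7148, 6723 and 7117 in vehicle (log2 fold change −0.53, SE 0.09, adjusted p = 0.00165), while its paralogue Eif4a2 held 1436, 1655 and 1739 and 1751, 1678 and 1525 (log2 fold change −0.04, 95% interval −0.26 to 0.18). The helicase cofactors both fell, Eif4b by 0.98 (adjusted p = 0.000203) and Eif4h by 0.39 (adjusted p = 0.00178). Under quantile normalization Eif4h was at −0.24. Eif4e itself held 5115, 5931 and 5246 in melatonin and 5959, 6272 and 5562 in vehicle, and its log2 fold change of −0.13 (95% interval −0.32 to 0.07) did not pass the test. Eif4e2, a cap-binding relative that does not bind eIF4G in the usual way, held 3069, 2896 and 3099 and 3128, 3277 and 3314 (log2 fold change −0.10, adjusted p = 0.268), and Eif4e3 held 1569.6, 1429 and 1617 and 1822, 1728 and 1599 (log2 fold change −0.16, adjusted p = 0.163).

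The proteins that bind eIF4E and keep it from eIF4G were also measured. Eif4ebp1 held 1905, 2932 and 3202 in melatonin and 2937, 3165 and 3044 in vehicle, with melatonin replicate 1 well below the other samples and a log2 fold change of −0.22 (95% interval −0.61 to 0.16). Eif4ebp2 fell, from 905, 776 and 839 in vehicle to 546, 457 and 699.7 in melatonin (log2 fold change −0.58, SE 0.15, adjusted p = 0.0121). Eif4enif1, which carries eIF4E into the nucleus, was at −0.31 and just missed the threshold (adjusted p = 0.0502).

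Of the 9 elongation factor genes 8 fell and 1 rose, against 24.7% and 24.5% of all genes, with a median of −0.78. The eEF1A gene Eef1a1 (ENSMUSG00000037742, chr9:78384916-78396778, minus strand) held 27451, 29734 and 37571 in melatonin and 56596, 52639 and 51920.5 in vehicle. The means were 31585 ± 5308 and 53719 ± 2517 (SD, n = 3), a log2 fold change of −0.78 (SE 0.12, adjusted p = 0.00105). Among the eEF1B subunits that recharge eEF1A, Eef1g (ENSMUSG00000071644, chr19:8944369-8955843, plus strand) held 1114, 1609 and 1813 and 3992, 3847 and 3689 (log2 fold change −1.37, SE 0.16, adjusted p = 0.000269), and Eef1b2 (ENSMUSG00000025967, chr1:63215940-63219645, plus strand) held 1707, 1941 and 2461 and 5037, 4488 and 4299 (log2 fold change −1.19, SE 0.13, adjusted p = 0.000225). In both genes melatonin replicate 1 was the lowest of all samples. Eef1d, the remaining exchange factor, fell by 0.73 (adjusted p = 0.00266), and Eef1e1, a part of the multisynthetase complex, by 0.80 (adjusted p = 0.000997). Eef2 (ENSMUSG00000034994, chr10:81012465-81018348, plus strand) held 15107, 11479 and 14479.9 in melatonin and 22537, 21021 and 22865 in vehicle, and here melatonin replicate 2 was the lowest (log2 fold change −0.70, SE 0.11, adjusted p = 0.0011). Eif5a (ENSMUSG00000078812, chr11:69807422-69827276, minus strand), which works in elongation despite its name, held 19301, 27013 and 26323 and 44630.4, 46775 and 45039. Its means were 24212 ± 4267 and 45482 ± 1139 (SD, n = 3), a log2 fold change of −0.93 (SE 0.13, adjusted p = 0.000605). Its scarce paralogue Eif5a2 held 176, 217 and 164 and 258, 309 and 295 (log2 fold change −0.63, adjusted p = 0.00839). Eefsec (ENSMUSG00000033216, chr6:88234309-88423573, minus strand), the dedicated factor that brings selenocysteine to the ribosome, was the exception, at 1733, 1754 and 1681 in melatonin and 1227, 1389.6 and 1440.2 in vehicle (log2 fold change 0.35, SE 0.09, adjusted p = 0.00927).

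Among the enzymes that modify elongation factors, Eef2k (ENSMUSG00000035064, chr7:120441877-120506674, plus strand), the kinase that inhibits eEF2, fell, from 665, 735 and 731 in vehicle to 229.7, 386 and 332 in melatonin (log2 fold change −1.20, SE 0.18, adjusted p = 0.000824). Eef2kmt, a methyltransferase of eEF2, fell by 0.31 (adjusted p = 0.0227), and its adjusted p was 0.0649 to 0.0879 without melatonin replicate 2 or vehicle replicate 1 or 2. The eEF1A methyltransferase genes Eef1akmt1 and Eef1akmt2 were at −0.05 and 0.05 (adjusted p = 0.707 and 0.74). Of the helicase genes of the exon junction complex, which share the Eif4a name but mark spliced mRNA, Eif4a3 fell by 0.67 and Eif4a3l2 by 0.63, and Eif4a3l1, at 15.7 to 44.3 normalized counts, was at −0.83 (adjusted p = 0.0578).

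The members' share of all normalized counts was 1.496% ± 0.133 (SD, n = 3) in melatonin and 1.87% ± 0.025 in vehicle. It was 1.35%, 1.54% and 1.60% in melatonin replicates 1, 2 and 3 and 1.90%, 1.86% and 1.86% in the vehicle samples, without overlap. The exact two-sided permutation p was 0.1, the smallest that 3 samples against 3 allow, and 0.125 after adjustment over 10 shares. Elongation factors differed most, with 0.430% ± 0.057 in melatonin and 0.732% ± 0.015 in vehicle. The share of eIF3 was 0.236% ± 0.022 and 0.343% ± 0.0050. The group of start codon selection and scanning was higher, from 0.235% ± 0.0053 in vehicle to 0.298% ± 0.025 in melatonin. Its summed mean went from 44746 to 55158 normalized counts, and the mean increases of Eif1 and Eif5 together were larger than this difference. Samples did not overlap in these 3 shares, and each had the same exact p of 0.1 (0.125 adjusted). The cap-binding group held 0.380% ± 0.024 and 0.368% ± 0.0014, with overlapping samples (exact p = 0.4). The rise of Eif4g2 and the falls of Eif4g1, Eif4a1, Eif4b and Eif4h are summed in that share. It leaves out Eif4a-ps4, a pseudogene copy of Eif4a1, at 12942 ± 1235 (SD, n = 3) in melatonin and 18893 ± 592 in vehicle. This gap is wider than that between the group's summed means, 70471 in melatonin and 70034 in vehicle. The slightly higher melatonin share thus depends on how reads were divided between Eif4a1 and its copy.

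**Figure D4:**
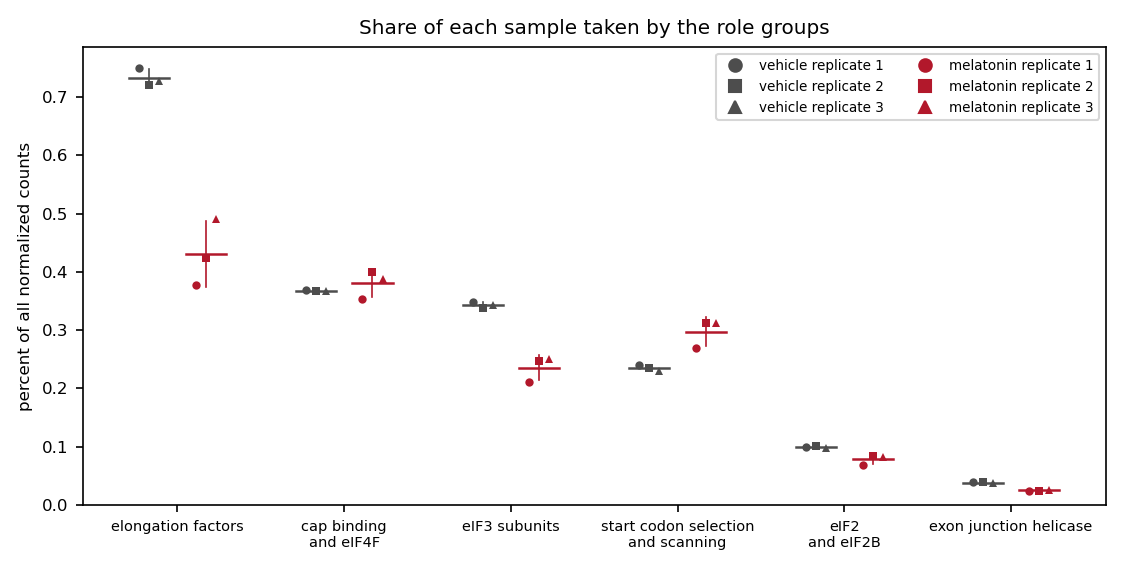
Percent of each sample's normalized counts taken by 6 of the role groups, with 1 marker per sample, a horizontal bar for the mean and a vertical bar for the SD. The elongation factor share is separated most, at 0.377% to 0.490% in melatonin against 0.720% to 0.7495% in vehicle, and the start codon share is the one that is higher in every melatonin sample.

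Per kilobase of canonical transcript, a scale on which levels of genes can be compared, the order of the most abundant members differed between the groups. In every vehicle sample Eif5a came first, at 32625 to 34193 normalized counts per kilobase, followed by Eef1a1 at 28941 to 31547 and Eif1 at 15133 to 16657. In every melatonin sample Eif1 came first, at 20015 to 22131, with Eef1a1 at 15302 to 20943 and Eif5a at 14109 to 19746 overlapping each other. Eef2 was at 3716 to 4891 in melatonin, where it ranked 4 in replicate 1 and 5 in the other samples, and at 6805 to 7402 in vehicle, where it ranked 4 throughout. Eif4g2 ranked 10 or 12 among the members in the vehicle samples, at 3496 to 3681, and 4 or 5 in the melatonin samples, at 4532 to 5365. These ranks leave out reads assigned to copies. Eif4a1 alone had a mean of 4871 normalized counts in melatonin and 6996 in vehicle. With Eif4a-ps4 the means were 17813 and 25889, so the ranks of Eef2 and Eif4g2 depend on how those reads were divided. The 12 eIF3 subunit genes other than Eif3j1 and Eif3j2 spanned 639 to 3669 per kilobase in vehicle and 329 to 2643 in melatonin.

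Ratios of related members within a sample do not depend on the scaling between samples, and 11 were compared, 2 of them (Eif4g2 to Eif4g1 and Eif5 to Eif5b) chosen after their values were seen. Eif4a2 to Eif4a1 was 0.325, 0.348 and 0.320 in melatonin replicates 1, 2 and 3 and 0.245, 0.250 and 0.214 in the vehicle samples, a log2 difference of 0.49. Eif4a1 made up 27.3% in melatonin and 27.0% in vehicle of its sum with Eif4a-ps4. With that sum as the denominator these ratios would be lower in every sample. Eif4g3 to Eif4g1 was 0.431, 0.441 and 0.393 in melatonin and 0.207, 0.246 and 0.255 in vehicle, a log2 difference of 0.84. Eif1b to Eif1 was lower in melatonin, at 0.0366 to 0.0434 against 0.0488 to 0.0556 (log2 difference −0.37), and Eif3j2 to Eif3j1 was higher, at 35.1 to 60.04 against 11.9 to 14.7 (log2 difference 1.68). The ratio of the j genes rests on the uncertain division of reads between near-identical copies. Their sum differed by −0.15 on the log2 scale (exact two-sided permutation p = 0.9). In these 4 pairs the groups did not overlap, with an exact two-sided permutation p of 0.1 each, the smallest possible, and 0.225 after adjustment over the 9 ratios that leave out the pairs chosen afterwards. The pairs chosen afterwards had log2 differences of 1.27 for Eif4g2 to Eif4g1, from 4.27 to 4.89 in vehicle to 9.36 to 11.8 in melatonin, and 1.18 for Eif5 to Eif5b. The groups overlapped for Eif5a2 to Eif5a (log2 difference 0.29, exact p = 0.3), Eif4e2 to Eif4e (0.03, exact p = 0.9), Eif4e3 to Eif4e (−0.03, exact p = 1), Eif4ebp1 to Eif4e (−0.09, exact p = 0.8) and Eif4ebp2 to Eif4e (−0.46, exact p = 0.2).

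**Figure D5:**
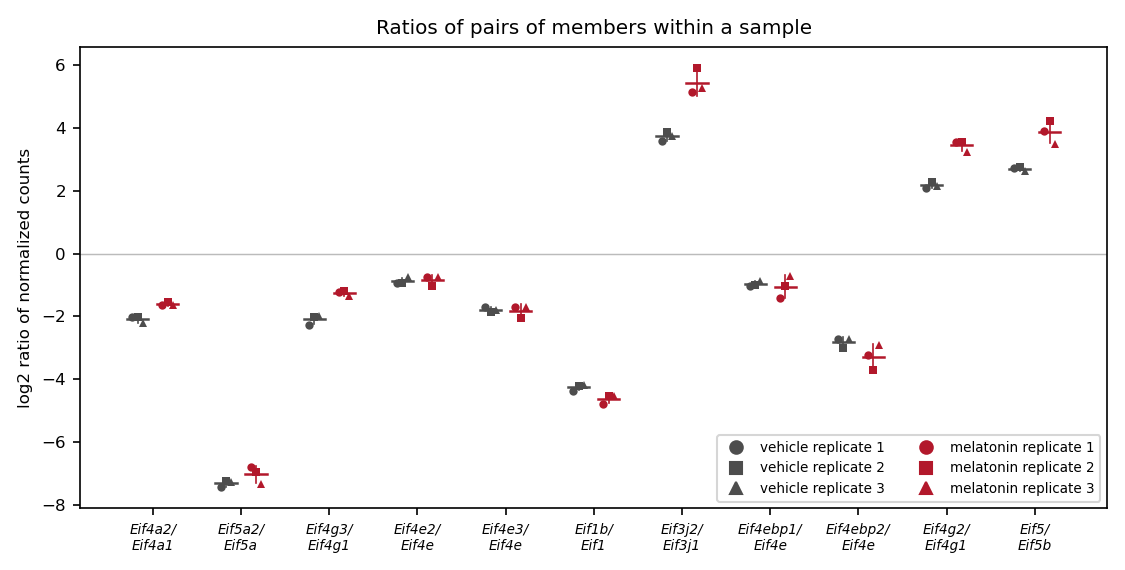
Log2 ratio of normalized counts for 11 pairs of members within each sample, with 1 marker per sample, a horizontal bar for the mean and a vertical bar for the SD. The melatonin samples lie apart from the vehicle samples for Eif4a2/Eif4a1, Eif4g3/Eif4g1, Eif1b/Eif1, Eif3j2/Eif3j1, Eif4g2/Eif4g1 and Eif5/Eif5b and overlap them for the other 5 pairs. The Eif3j2/Eif3j1 ratio rests on an uncertain division of reads between near-identical copies.

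Reads of near-identical copies and of overlapping genes bear on some of these values, since the library kit does not mark strand. A transcribed pseudogene, Eif4a-ps4, held 12942 ± 1235 (SD, n = 3) normalized counts in melatonin and 18893 ± 592 in vehicle, so that Eif4a1 made up 27.3% and 27.0% of the sum of both. That sum differed by −0.54, close to Eif4a1 alone. The sums of Eif4a3, Eif3e, Eef2, Eif5a and Eif1 with their listed copies differed by −0.66, −0.70, −0.70, −0.93 and 0.38. Exons of 19 of the 59 members overlap an exon of another listed gene, among them Eef1b2 (with Ndufs1), Eif5a (with Gps2), Eif3i (with Tmem234), Eif3j1 (with Spg11) and Eefsec (with Gm44264). Of the 39 members that fell, 26 have no such overlap.

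Other genes of protein synthesis were counted beside the members. Over all genes 24.7% fell and 24.5% rose. Of 83 tested cytosolic ribosomal protein genes 80 fell (96.4%) and none rose, with a median log2 fold change of −1.07. Of 37 cytosolic and mitochondrial aminoacyl-tRNA synthetases 16 fell (43.2%) and 3 rose (8.11%, or 5 genes without melatonin replicate 1), with a median of −0.21. The X-linked eIF2γ gene Eif2s3x, at 956, 1460 and 1987 in melatonin and 2119 to 2297 in vehicle, had a log2 fold change of −0.67 (adjusted p = 0.0312), and of −0.39 (adjusted p = 0.0287) without melatonin replicate 1, the only melatonin library with Eif2s3y counts and so the only one alike in sex to the vehicle libraries. Its call was lost without melatonin replicate 2 or any one vehicle replicate (adjusted p = 0.068 to 0.0895). The kinases and phosphatase subunits that act on eIF2α included none that fell and 3 of 6 that rose, where 24.5% of all genes did, namely Eif2ak1, the kinase that responds to haem (0.58, adjusted p = 0.000526), Eif2ak3, the kinase of the endoplasmic reticulum (0.54, adjusted p = 0.0438, with overlapping groups, or 0.33 without vehicle replicate 1), and Ppp1r15a, the stress-induced phosphatase subunit (0.54, adjusted p = 0.00866). The call of Eif2ak3 was lost without melatonin replicate 1 or 2 or vehicle replicate 1 or 2 (adjusted p = 0.0751 to 0.128), which left 2 of 6. Of 19 partners of the initiation factors 4 rose (21.1%, where 24.5% of all genes did) and 7 fell (36.8%, where 24.7% did). Those that rose were Pdcd4, an inhibitor of eIF4A (1.14, adjusted p = 0.00125), Paip2, an inhibitor of poly(A)-binding protein (0.57, adjusted p = 0.000824), and the eIF4E kinases Mknk1 and Mknk2 (0.79 and 0.74). Mknk2 ranged from 1782 to 3795 in vehicle, its difference was 0.45 without vehicle replicate 1, and its call was lost without that sample, vehicle replicate 2 or melatonin replicate 1 or 2 (adjusted p = 0.0646 to 0.0873). Those that fell included the poly(A)-binding proteins Pabpc1 (−0.51) and Pabpc4 (−1.72). Larp1 (−0.42, with overlapping groups) lost its call without melatonin replicate 1 or 3 or any one vehicle replicate (adjusted p = 0.0511 to 0.121). Larp4 (−0.44) lost its call without vehicle replicate 2 (adjusted p = 0.0513), where 5 of 19 fell. Of 9 enzymes that make hypusine on eIF5A or diphthamide on eEF2, 5 fell (55.6%, where 24.7% of all genes did) and none rose. Dph7 lost its call without melatonin replicate 2 or 3 or any one vehicle replicate (adjusted p = 0.0514 to 0.168). In those fits 4 of 9 fell. Of 6 termination and recycling factors 3 fell (50%, where 24.7% of all genes did) and none rose. Without melatonin replicate 3, 4 of the 6 fell and 1 rose. Of 11 mitochondrial translation factors 3 fell and 3 rose, 27.3% each, near the shares over all genes. Mtif2, which rose by 0.40, lost its call without vehicle replicate 1 or 3 (adjusted p = 0.0512 and 0.068), which left 2 that rose. Without melatonin replicate 3, 4 rose.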

How the data were processed

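RNA from aILC2s was converted to cDNA with the SMARTer Ultra Low Input kit (from 10 pg of RNA in the methods of the study and 10 ng in the labels) and sequenced on an Illumina NextSeq instrument. Trimming in Partek Flow, STAR alignment to mm39 (GRCm39), and read assignment by Partek's E/M method to genes of Gencode M33 were done by the authors, who divided the estimated counts by median-ratio size factors. Their analysis left out genes under 10 counts throughout, but of the deposited genes 1962 are under 10 normalized counts in every sample. The deposited values are thus a signal, called normalized counts here. At a tolerance of 0.01 only 65.8% of them were whole multiples of the value of 1 read, so whole reads were not recovered, and the depth of 17056267 to 20511700 estimated counts per sample comes from that spacing.

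Names, positions, transcript lengths and promoters came from the Gencode M39 annotation and the GRCm39 genome (16334 of 16381 identifiers matched). Treatment was the only term of a limma fit (version 3.58.1, eBayes with a mean trend, R 4.3.3) to log2(normalized count + 1), a scale that understates the changes of low genes. Genes that reached 10 normalized counts in some sample entered, and p-values were adjusted by Benjamini-Hochberg over these 14419 genes. Shares and ratios were compared with an exact two-sided permutation test, whose smallest p with 3 samples against 3 is 0.1. Tables used pandas 2.3.3, permutation tests scipy 1.17.1 with numpy 2.4.6, sequence reading pysam 0.24.0 and figures matplotlib 3.10.9. On data simulated for this comparison (14004 genes, 9.65% variation), the fit recovered 107 of 107 genes changed by 1 on the log2 scale. It recovered 63 of 93 changed by 0.5, and called 7 of 13804 unchanged genes. The simulation drew each gene independently, with the same spread in both groups and few changed genes. In the measured data the spread differed between the groups and far more genes were called, so these rates may not carry over.

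The members, roles and lists were chosen with earlier results of these data known. Sample values and full statistics are given for up to 5 called members with the largest rises and 5 with the largest falls (mean of at least 100, no overlap between groups), the 5 most abundant members, members of the ratio pairs, subunits of eIF2 and eIF2B and the eIF4E-binding proteins. Other members are given by counts, ranges and fold changes. The alternatives were pseudocounts of 0.1 and 10, other filters, scalings and thresholds, limma without the trend, voom, a transcript length correction, the replicate number as a block and each sample left out. Sums with copies, shares and genes of the other lists with a sample left out and the 2 further ratios were added after the data had been seen.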

Additional observations from a re-analysis of the deposited data

How the results depend on the processing

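Across the 17 alternatives (16 for Eif4a3l1, which has too low a mean for one filter), the same 4 members, Eif5, Eif4g2, Eif1 and Eefsec, were called higher, and with the transcript length correction Eif1b (0.25) was added, making 5. Between 32 and 42 members were called lower, and at an adjusted p under 0.01 the counts were 4 higher and 31 lower, with Eif4ebp2 lost as well as the members that lost their calls in a refit. With a further requirement of a log2 change of 1 or more, 0 members were higher and 5 lower. Leaving out each sample in turn gave 4 higher and 32 to 38 lower, with a median log2 fold change of −0.57 to −0.39. With the replicate number as a block 4 members were higher and 38 lower, Eif2b1 and Eef2kmt losing their calls. The deviations of same-numbered samples correlated at −0.054, 0.00644 and −0.0483, and no sample correlated best with its own number. Such weak correlations from 3 samples per group cannot tell whether same-numbered samples were paired. No scaling moved the median of all genes by more than 0.1 on the log2 scale. No within-batch values could be had, since the labels name no batch. The calls of members that a refit ended were those of Eif2b1, Eif5b, Eif2s2, Eif3b, Eif3m, Eef2kmt and Eif2b3, while Eif4enif1 passed the test in 9 of 17, Eif4a3l1 in 4 of 16, Eif1ad in 2 and Eif4e and Eif1b in 1 each of 17. Falls shrank by more than 1.5 times under quantile normalization for Eif4h (−0.24) and Eif3b (−0.17) and with the length correction for Eif3k (−0.26) and Eif3m (−0.14). Signs turned only in values that had not passed the test in the report, and the cause was not tested. These were, under quantile normalization, the start codon group's median (−0.018), Eif1b (−0.038), Eif4e (0.014), Eif4g3 (−0.014) and Eef1akmt2 (−0.031), under upper quartile scaling the start codon group's median (−0.037), Eif1b (−0.037), Eif2d (−0.038), Eif4g3 (−0.023), Eef1akmt2 (−0.0044) and Eif1a (−0.016), and with the length correction Eif4e2 (0.0039), Eif4g3 (−0.087) and Eef1akmt2 (−0.085). Over the fits that omit 1 sample, the log2 value ranged from −0.12 to 0.028 for Eef1akmt1, from −0.012 to 0.11 for Eef1akmt2, from −0.033 to 0.082 for Eif1a, from −0.078 to 0.12 for Eif1b, from −0.025 to 0.037 for Eif2d, from −0.18 to 0.10 for Eif3j2, from −0.10 to 0.041 for Eif4a2, from −0.19 to −0.087 for Eif4e, from −0.13 to −0.071 for Eif4e2, from −0.37 to 0.0079 for Eif4ebp1, from −0.031 to 0.12 for Eif4g3, from −0.025 to 0.12 for the log2 ratio Eif4e2 to Eif4e, from −0.089 to 0.089 for the log2 ratio Eif4e3 to Eif4e, from −0.26 to 0.095 for the log2 ratio Eif4ebp1 to Eif4e and from −0.022 to 0.029 for the start codon group's median. Without single samples the log2 ratio Eif5a2 to Eif5a ranged from 0.17 to 0.44 and Eif4ebp2 to Eif4e from −0.64 to −0.25. The members' share was lower in melatonin by −0.429 to −0.302 percentage points with a sample left out.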
